A study of Mus musculus with 3 samples.

Results

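The NR2F2 peaks around 10 genes that peritubular myoid cells share with smooth muscle, 8 of the contractile apparatus and 2 of its transcriptional regulators, Srf and Myocd, were described gene by gene. The genes were Acta2, Actg2, Myh11, Tagln, Cnn1, Des, Myl9, Srf, Myocd and Tpm1. A peak was assigned to a gene when its nearest transcription start site (TSS) belonged to that gene, or when it lay within 100 kb of any TSS of that gene. This gave 16 of the 10069 peaks of the series, at 8 of the 10 genes, and no peak was shared between genes. The ChIP-seq libraries for NR2F2 (COUP-TFII) were made from E14.5 (embryonic day) fetal mice of the CD-1 stock, whose testes were used whole after the mesonephros had been taken off. The series held 2 independent NR2F2 ChIP experiments, each on sheared chromatin pooled from 30 testes, and 1 input library, which is chromatin sequenced without immunoprecipitation. The labels of these libraries give no genotype or treatment. Peaks were called by the authors on the merged ChIP reads and set to 300 bp. Because whole testes were used, binding in myoid cells and binding in other testicular cells cannot be told apart, and no RNA was measured in these libraries by which the myoid label could be checked.

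Peritubular myoid cells are flattened, muscle-like cells that surround the testis cords, and their contraction later moves sperm and fluid along the tubules. They share with smooth muscle a set of actins, myosins and actin-binding proteins, and the contractile cells of the tunica albuginea express the same genes. Many smooth muscle genes are controlled by serum response factor (SRF), which binds the CArG box and is assisted by myocardin and the myocardin-related factors. NR2F2 is a nuclear receptor found in many interstitial cells of the fetal testis. It binds DNA through a core hexamer, AGGTCA or GGGTCA, alone or as a repeat.

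Sequences are shown for the peak at the Srf promoter and for the peak farther upstream of Srf, which had more ChIP counts. Both Tpm1 peaks and the Cnn1 peak with a pair of core hexamers are also shown. The other peaks of the contractile genes are not printed. They were read from the GRCm38 assembly, the same as mm10, on the plus strand, and capitals mark the core hexamer AGGTCA or GGGTCA on either strand. Bases annotated as untranslated region were left out, so the Cnn1 and Tpm1 lines are parts of their peaks.
Srf promoter peak, chr17:46556551-46556850, plus strand: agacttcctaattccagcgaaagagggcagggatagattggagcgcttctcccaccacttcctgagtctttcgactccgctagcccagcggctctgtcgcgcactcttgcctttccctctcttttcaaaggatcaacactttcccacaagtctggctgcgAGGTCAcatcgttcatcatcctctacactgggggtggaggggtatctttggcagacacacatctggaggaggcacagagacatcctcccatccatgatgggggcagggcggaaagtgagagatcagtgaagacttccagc
Srf distal peak at Ptk7, chr17:46629994-46630293, plus strand: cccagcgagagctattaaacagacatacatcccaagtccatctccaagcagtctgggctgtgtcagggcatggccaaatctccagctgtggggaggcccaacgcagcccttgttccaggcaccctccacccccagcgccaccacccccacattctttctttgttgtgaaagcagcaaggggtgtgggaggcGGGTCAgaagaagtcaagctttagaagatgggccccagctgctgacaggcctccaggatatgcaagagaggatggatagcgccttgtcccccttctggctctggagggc
Tpm1 internal start site peak, chr9:67043589-67043709, plus strand: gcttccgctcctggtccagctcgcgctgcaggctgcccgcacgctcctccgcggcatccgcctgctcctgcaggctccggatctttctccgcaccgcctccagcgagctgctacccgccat
Tpm1 intron peak, chr9:67032601-67032793, plus strand: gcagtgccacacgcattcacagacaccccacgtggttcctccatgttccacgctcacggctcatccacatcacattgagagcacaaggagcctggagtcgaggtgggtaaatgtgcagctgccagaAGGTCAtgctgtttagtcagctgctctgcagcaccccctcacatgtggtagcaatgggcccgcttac
Cnn1 peak at Ecsit, chr9:22085100-22085348, plus strand: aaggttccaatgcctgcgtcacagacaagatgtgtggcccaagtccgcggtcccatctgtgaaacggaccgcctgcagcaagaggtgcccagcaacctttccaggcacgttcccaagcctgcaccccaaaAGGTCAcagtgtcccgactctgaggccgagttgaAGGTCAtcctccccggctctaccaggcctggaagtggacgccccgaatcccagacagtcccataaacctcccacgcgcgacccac
For comparison with the Srf promoter peak, the stretch just before the Srf TSS is shown from the RefSeq promoter table (GRCm38), on the minus strand from which Srf is transcribed. Here the capitals mark the CArG box, the binding site of SRF itself.
Srf promoter, chr17:46556176-46556412, minus strand: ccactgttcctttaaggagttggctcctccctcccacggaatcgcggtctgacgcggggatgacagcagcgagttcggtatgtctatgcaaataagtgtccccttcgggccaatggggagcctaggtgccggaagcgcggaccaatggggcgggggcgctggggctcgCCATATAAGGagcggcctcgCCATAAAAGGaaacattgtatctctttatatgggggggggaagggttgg

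The counts covered the peaks only. The input held 73251 counts over all peaks, ChIP replicate 1 held 426784 and ChIP replicate 2 held 364261, and the median peak had 7, 37 and 31 counts in these libraries. The input count at the 16 peaks was 5 to 16 with a median of 8.5, which limits the precision of every ratio. The depth of the whole libraries was not used here, so a ratio of ChIP to input at a peak was read only against the typical peak. The GRCm38 curated RefSeq annotation, with 26180 genes, placed 10064 peaks on chromosomes.

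Of the 10 genes, 8 had a peak within 100 kb of a TSS, against 68.6% of all curated genes. Only Srf and Tpm1 were the nearest gene of a peak, 2 of 10 against 30.8% of all genes, and the same 2 genes had a peak within 1 kb of a TSS, against 24.8%. Myh11 and Myocd had none. Of the 16 peaks, 3 had a contractile gene as their nearest gene and 13 lay nearer to the TSS of another gene. Over all pairs of a gene and a peak within 100 kb, the gene was the nearest in 22.0%, so 3 of 16 was close to the background. The genes had a mean of 1.6 peaks within 100 kb, against 1.64 over all genes.

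Most of the 16 peaks sat at start sites of neighbouring genes. In 12 of the 13 peaks nearest to another gene, the peak overlapped that gene's TSS or lay within 500 bp of it. Of all 16, 14 overlapped or lay within 500 bp of some TSS, against 53.8% of all peaks. In the classes used by the study, 10 were TSS proximal, meaning that they overlapped the nearest TSS or lay up to 1 kb upstream of it, against 36.0% of all peaks. The other 6 were in gene bodies. The contractile genes had a median of 5 other genes with a TSS within 100 kb, against 4 for all genes. The map of peaks around each gene shows the Srf promoter peak and the Tpm1 start site peak at or near position 0, and the others scattered on both sides from 10971 bp outwards.

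**Figure D1:**
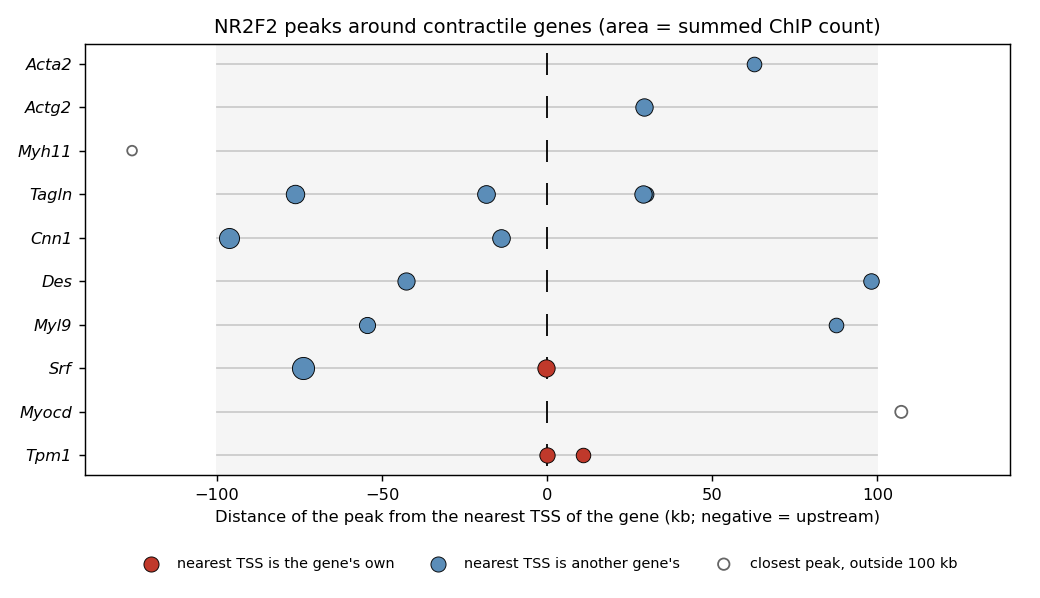
Peaks by distance from the nearest TSS of each contractile gene (x axis, kb, upstream negative; 1 row a gene), with symbol area proportional to the ChIP count summed over both replicates. The grey field is the 100 kb window; red marks the 3 peaks whose nearest TSS is the gene's own, blue the 13 nearer to another gene, and open circles the closest peaks of Myh11 and Myocd, outside the window.

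Srf (gene identifier 20807) encodes the transcription factor at the head of the contractile programme. The peak shown above from its promoter lay 389 bp upstream of the TSS, outside any gene. It had 5 counts in the input, 63 in ChIP replicate 1 and 39 in ChIP replicate 2. The mean of the raw ChIP counts, not scaled for depth, was 51 ± 17 (SD, n = 2). Both ChIP counts lay above the input count, as they did at each of the 16 peaks and at 99.9% of all peaks, which were called on these reads. The raw ratio to input was 12.6 in replicate 1 (95% exact interval 5.12 to 40.1) and 7.80 in replicate 2 (3.07 to 25.4), and these intervals cover counting error only. The log2 ratio relative to the typical peak, fitted by edgeR with TMM scaling, was 1.02 ± 0.62 (SE, edgeR adjusted p = 0.620). It was the highest estimate among the 16 peaks and did not pass the threshold of 0.05. An AGGTCA hexamer lay 13 bp from the centre of the peak.

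The CArG boxes of the Srf promoter lay outside this peak. CCATATAAGG was 73 to 82 bases before the TSS and CCATAAAAGG 53 to 62 bases before it, in the stretch printed above. The promoter window of RefSeq, from 250 bases before to 50 after the TSS, ended 138 bp short of the peak. No core hexamer was found in that window.

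The second Srf peak lay 73832 bp upstream of the Srf TSS and 490 bp upstream of Ptk7, which encodes a receptor-like protein of planar cell polarity. It had 10 input counts and 102 and 65 ChIP counts. The sum of 167 was the highest of the 16 peaks and stood at the 95.9th percentile of all peaks. Its log2 ratio to the typical peak was 0.74 ± 0.45 (SE, edgeR adjusted p = 0.628). The GGGTCA hexamer lay 44 bp from the centre, and 7 genes had a TSS nearer to this peak than Srf.

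Myocd (214384), which encodes myocardin, the coactivator of SRF, had no peak within the window. The closest peak lay 107239 bp downstream of its TSS, in a coding exon of Arhgap44 and 211 bp from that gene's TSS (chr11:65162451-65162750). It had 6 input counts and 25 counts in each ChIP replicate, and a log2 ratio of -0.25 ± 0.67 (SE, edgeR adjusted p = 0.955). It stood just outside the limit of 100 kb, as did a peak near Cep164 at 107559 bp from Tagln (6 input counts, 35 and 29 ChIP counts). Just inside the limit were the Des peak at 98122 bp and the Cnn1 peak at 96206 bp.

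Tpm1 (22003) encodes a tropomyosin, which lies along the actin filament and controls the access of myosin to it. The gene uses different start sites, and its 10 curated transcripts start at 2 positions. The peak at chr9:67043589-67043888 overlapped the internal TSS, from which 4 transcripts start, and lay 5325 bp from the upstream TSS of the other 6. It had 8 input counts and 39 and 41 ChIP counts, and a log2 ratio of 0.01 ± 0.56 (SE, edgeR adjusted p = 1.0). The estimate was thus that of a typical peak, and the peak held no core hexamer.

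A second Tpm1 peak, at chr9:67032601-67032900, lay in the gene, 10971 bp downstream of the internal TSS, with its midpoint in an intron. It had 10 input counts and 37 and 35 ChIP counts, the lowest ChIP sum of the 16 peaks (72). Its log2 ratio was -0.47 ± 0.53 (SE, edgeR adjusted p = 0.873), and an AGGTCA hexamer lay 21 bp from its centre.

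The smooth muscle actins had no peak of their own. Acta2 (11475), which encodes the alpha smooth muscle actin widely used to mark myoid cells, had 1 peak 62637 bp downstream of its TSS, in the 5′ UTR of Stambpl1 (chr19:34192437-34192736). That peak had 6 input counts and 38 and 35 ChIP counts, a log2 ratio of 0.29 ± 0.62 (SE, edgeR adjusted p = 0.940), and no core hexamer. Actg2 (11468), the gamma smooth muscle actin, had 1 peak 29332 bp downstream, in a coding exon of Dguok (chr6:83506620-83506919). Dguok encodes a mitochondrial nucleoside kinase. This peak had 15 input counts and 43 and 60 ChIP counts, and the lowest log2 ratio of the 16, -0.53 ± 0.45 (SE, edgeR adjusted p = 0.792).

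Of the myosin genes, Myh11 (17880), the smooth muscle myosin heavy chain, had no peak within 100 kb. Its closest peak lay 125682 bp upstream, in an intron of Abcc1 (chr16:14417090-14417389), with 3 input counts and 14 and 18 ChIP counts. Its ChIP counts were below the medians of all peaks, and it had a log2 ratio of 0.10 ± 0.94 (SE, edgeR adjusted p = 0.992). Myl9 (98932), the regulatory light chain, had 2 peaks, both over non-coding transcripts. The upstream peak (chr2:156720603-156720902), 54562 bp away and 7 bp from the TSS of 4930405A21Rik, had 5 input counts and 46 and 43 ChIP counts. The downstream peak (chr2:156862791-156863090), 87327 bp away at the TSS of 5430405H02Rik, had 7 input counts and 45 and 28 ChIP counts. Their log2 ratios were 0.83 ± 0.63 and 0.06 ± 0.59 (SE, edgeR adjusted p = 0.739 and 0.992).

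Tagln (21345), which encodes the actin-bundling protein transgelin (SM22), had the most peaks of the 10 genes, 4, none of them nearer than 18594 bp. The closest (chr9:45954652-45954951) lay upstream in a coding exon of Sidt2 and had 9 input counts and 48 and 59 ChIP counts. A pair of peaks lay over start sites of Rnf214 downstream. The peak at chr9:45905886-45906185, 29873 bp away, had 6 input counts and 31 and 44 ChIP counts, and the peak at chr9:45906658-45906957, 29101 bp away, had 10 input counts and 53 and 50 ChIP counts. The fourth (chr9:46012454-46012753), 76396 bp upstream over the TSS of Pafah1b2, had 6 input counts and 62 and 54 ChIP counts. It was the strongest of the 4 relative to input, with a log2 ratio of 0.95 ± 0.57 (SE, edgeR adjusted p = 0.614), and the other 3 were between 0.05 and 0.33.

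Cnn1 (12797), calponin, an actin-binding inhibitor of the myosin ATPase, had 2 peaks upstream. The closer (chr9:22085100-22085399), 13854 bp away, lay 28 bp from the TSS of Ecsit and over an exon of the non-coding Gm16845. It had 11 input counts and 56 and 50 ChIP counts, and its AGGTCA hexamers lay 17 bp to either side of the centre. The log2 ratio of -0.05 ± 0.49 (SE, edgeR adjusted p = 0.992) was that of a typical peak. The other (chr9:22002748-22003047), 96206 bp away over the TSS of Prkcsh, had the highest input count of the 16 peaks, 16, and 85 and 52 ChIP counts (log2 ratio -0.23 ± 0.41, SE).

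Des (13346), which encodes desmin, the muscle intermediate filament protein, had a peak on each side. The upstream peak (chr1:75317144-75317443), 42849 bp away in an intron of Dnpep and 127 bp upstream of a TSS of that gene, had 8 input counts and 55 and 46 ChIP counts. The downstream peak (chr1:75458414-75458713), 98122 bp away in an intron of Asic4, had 10 input counts and 41 counts in each ChIP replicate. It was the only peak of the 13 nearest to another gene that was not within 500 bp of that gene's TSS (7904 bp). The log2 ratios were 0.34 ± 0.54 and -0.28 ± 0.52 (SE, edgeR adjusted p = 0.919 and 0.932).

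**Figure D2:**
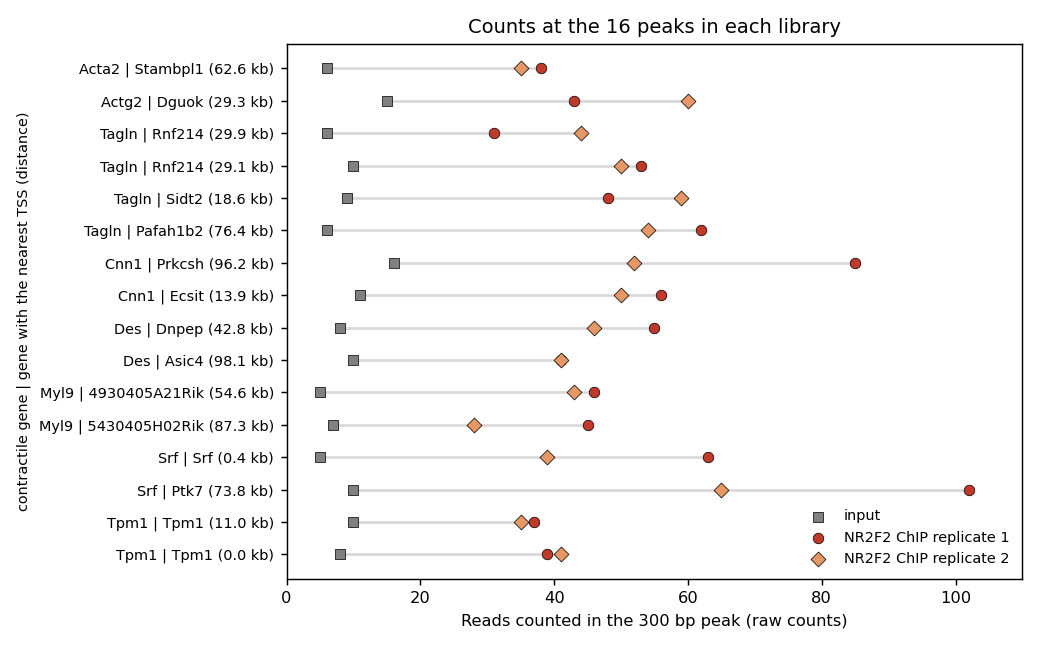
Raw read counts (x axis) at each of the 16 peaks in the input (squares), ChIP replicate 1 (circles) and ChIP replicate 2 (diamonds). Rows name the contractile gene, the gene with the nearest TSS and the distance to the contractile gene. The input lies at 5 to 16 counts, and the ChIP libraries at 28 to 102.

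Whether the peaks stood apart in their ratio of ChIP to input was tested over all peaks with edgeR's quasi-likelihood test. None of the 16 was above the typical ratio at an adjusted p under 0.05, and none was below it. Over all peaks, 1.53% were above and 0.0497% below. At an unadjusted p under 0.05, edgeR gave 0 of the 16 and 1051 of all peaks (10.4%). DESeq2, which gave an adjusted p at only 2 of the 16, had such a p at 0 of the 16 and at 212 of all 10069 peaks. The estimates were positive at 11 peaks and negative at 5, from -0.53 to 1.02 with a median of 0.16. The median of all peaks was 0.02. The standard errors in the plot of these ratios ran from 0.41 to 0.63. With errors of this size, the absence of a call does not show that the ratio of a peak was typical. The 16 peaks were compared with the typical peak and not with each other.

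**Figure D3:**
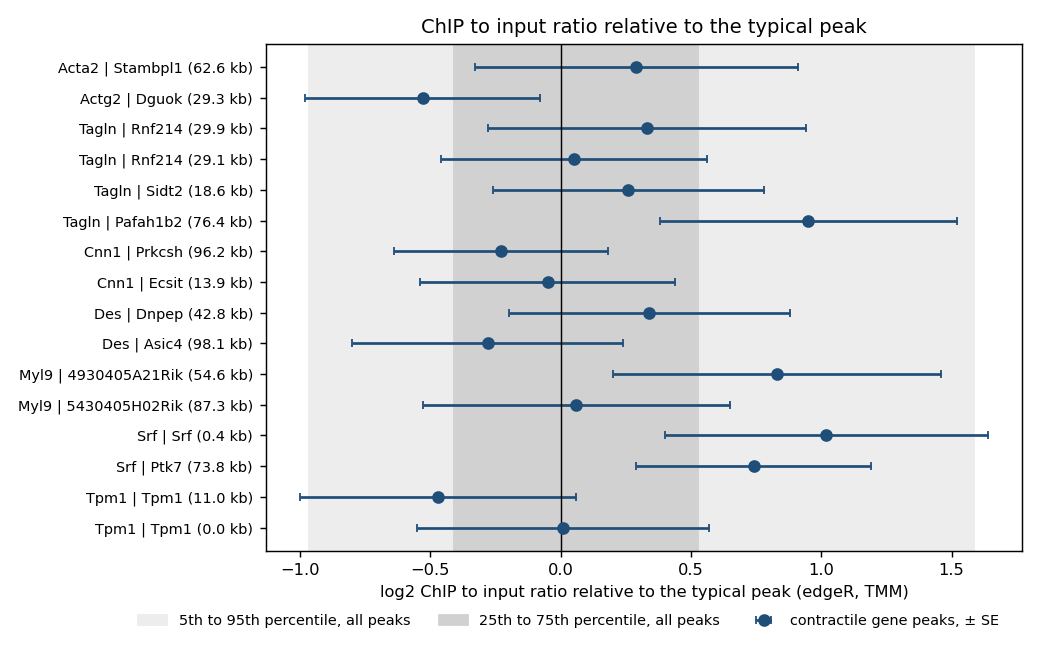
Log2 ratio of ChIP to input relative to the typical peak (x axis, edgeR with TMM scaling; points, with bars of ± SE) at the 16 peaks. The dark and light fields hold the middle 50% and 90% of all peaks, and all 16 points fall inside the light field, with the Srf promoter peak highest at 1.02 and the Actg2 peak lowest at -0.53.

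The median raw ratio of the 16 peaks, with 0.5 added to each count, reached 5.14 in the first ChIP library and 5.17 in the second, which averaged 5.16 ± 0.0201 (SD, n = 2). Over all peaks it was 5.11 and 4.39, which averaged 4.75 ± 0.505 (SD, n = 2). The medians were nearly equal in replicate 1 and the 16 peaks were higher in replicate 2. No test was made of this difference, since the ratios share the single input. The ratios were not scaled for depth, so these SDs include the difference in total counts between the ChIP libraries.

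The summed ChIP count was above the median of all peaks, 68, at each of the 16 peaks. The lowest was 72, the median 101.5 and the highest 167, and 49.1% of all peaks were above 68. Position moved with this count. Peaks that overlapped a TSS or lay within 500 bp of one had a median of 73, and 55.6% of them were above 68. The 16 peaks had a median GC content of 67.3%, against 60.7% for all peaks and 65.3% for those at or within 500 bp of a TSS. The part of position in the summed counts was not tested.

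The ChIP replicates were compared at each peak by an exact two-sided binomial test against the share of all counts at peaks. None of the 16 peaks differed at an adjusted p under 0.05, against 0.0993% of all peaks. Without adjustment, 2 of the 16 had a p under 0.05, the Actg2 peak (43 and 60 counts, exact binomial p = 0.0135) and the first Rnf214 peak near Tagln (31 and 44, exact binomial p = 0.0364). Both were higher in replicate 2. Over all peaks 8.83% had such a p. The count was higher in replicate 1 at 11 peaks, higher in replicate 2 at 4 and equal at 1. Replicate 1 held 54.0% of the ChIP counts over all peaks. This test compares 2 libraries, not conditions.

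The distance from a gene to its closest peak placed the contractile genes along the curve of the 26089 curated genes on a chromosome with a peak, over which the shares here are taken. Tpm1 ranked first, with a peak at a TSS, and 9.91% of these genes had a peak that close. Srf followed, at 22.2%. Cnn1, Tagln and Actg2 stood at 34.7%, 37.9% and 44.7%, and Des, Myl9 and Acta2 at 51.9%, 56.2% and 59.3%. Myocd and Myh11 came last, at 70.2% and 73.3%. The median gene had its closest peak at 39040 bp, which fell between Actg2 and Des, so 5 of the genes were closer to a peak and 5 farther.

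**Figure D4:**
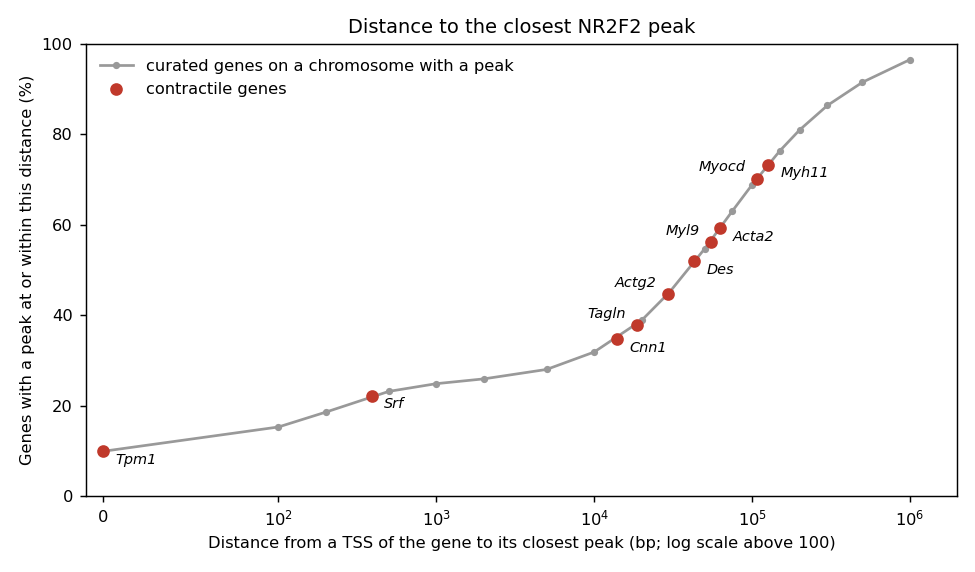
Share of the 26089 curated genes on a chromosome with a peak that have 1 at or within a given distance of a TSS (grey line; x axis in bp, log scale above 100), with the contractile genes as red points at their own closest peak. The points run from Tpm1 at 0 bp to Myh11 at 125682 bp and are spread along the curve.

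The peaks and promoters were then searched for exact matches on both strands. The core, AGGTCA or GGGTCA, was found in 10 of the 16 peaks, against 58.9% of all peaks. It was absent from the peaks at Stambpl1 (Acta2), Prkcsh (Cnn1), both non-coding transcripts near Myl9, the second Rnf214 peak (Tagln) and the Tpm1 start site. The longer form AGAGGTCA or AGGGGTCA, which contains the core, was found in 1 of the 16, against 10.5% of all peaks. This was the Actg2 peak at Dguok, where AGGGGTCA lay 128 bp from the centre, near the edge. Direct repeats of the core spaced by 0 to 5 bases were found in 0 of 16 peaks, against 4.47% of all peaks. The CArG box was found in 0 of 16 peaks, against 1.03%. Such a match is a description of the letters and not a mapped site.

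RefSeq promoter windows were matched for 6 of the genes, Acta2, Cnn1, Des, Myl9, Srf and Tpm1. None of these 6 windows overlapped a peak. The Tpm1 window lies at the upstream TSS, and the internal TSS under the Tpm1 peak was not part of this search. The CArG box was found in 2, Srf and Myl9, against 1.63% of all promoters, and the core in 0, against 27.5%. Only the exact form of the CArG box, CC, then 6 bases of A or T, then GG, was searched. A box that departs from this form would be missed.

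Further genes of the same pathways were taken from lists, which were chosen with earlier results of these data known. Of 21 contractile and cytoskeletal genes, 18 had a peak within 100 kb, against 68.6% of all genes, and 9 were the nearest gene of a peak, against 30.8%, with 56 peaks in all. Mylk, the myosin light chain kinase, Synpo2 and Kcnmb1 had none. Peaks within 1 kb of a TSS were found at 6 of the genes, Fhl2, Actn1, Vcl, Cald1, Actn4 and Tpm4, against 24.8% of all genes. The median summed ChIP count of the 56 peaks was 86, against 68 for all peaks. At the 16 of them nearest to a listed gene it was 71.5. Of the 56, edgeR called 0 above or below the typical ratio, against 1.53% and 0.0497% of all peaks. An unadjusted edgeR p under 0.05 was found at 4 of the 56, against 10.4% of all peaks. By summed ChIP count, though not by ratio to input, the strongest peak of the list lay 81089 bp from Tpm2, another tropomyosin gene. It lay over the TSS of Tesk1 (chr4:43442166-43442465), with 14 input counts and 117 and 104 ChIP counts. The next, at Ppp1r14a, which encodes an inhibitor of myosin phosphatase, lay 4134 bp downstream (chr7:29293454-29293753), with 12 input counts and 112 and 77 ChIP counts. The third lay 25584 bp downstream of Tpm4, at Rab8a (chr8:72160872-72161171), with 14 input counts and 109 and 78 ChIP counts.

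Of 14 regulators of SRF and of contraction, 12 had a peak within 100 kb, against 68.6% of all genes, and 9 were the nearest gene of a peak, against 30.8%, with 23 peaks in all. These shares were not tested. Prkg1 and Mef2a had none. Peaks within 1 kb of a TSS were found at 7 of these genes, Rock1, Rock2, Ppp1r12a, Ppp1r12b, Mrtfb, Arhgef12 and Elk1, against 24.8% of all genes. The median summed ChIP count of the 23 peaks was 49, below the 68 of all peaks, and 3 of the 23 had an unadjusted edgeR p under 0.05, near the 10.4% of all peaks.

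Rock2 encodes a kinase that inhibits myosin phosphatase. Its peak, 228 bp upstream of the TSS (chr12:16894451-16894750), was the 1 peak of both lists that edgeR called above the typical ratio, where 1.53% of all peaks were called. It had 1 count in the input and 48 and 49 counts in the ChIP replicates. The raw ratios were 48.0 (95% exact interval 8.21 to 1930) and 49.0 (8.39 to 1970), and the log2 ratio was 3.24 ± 0.96 (SE, edgeR adjusted p = 0.0491). The call was lost without TMM scaling (edgeR adjusted p = 0.089) and with DESeq2's size factors in edgeR (edgeR adjusted p = 0.26), and DESeq2 gave the peak no adjusted p. The log2 ratio itself was 3.13, 3.22 and 3.27 in these fits. Over the alternatives that gave it an adjusted p in edgeR, this ranged from 0.0478 to 0.26. By ChIP counts, stronger peaks of the list lay 23829 bp downstream of Foxf1, over the TSS of Mthfsd (chr8:121108215-121108514), with 16 input counts and 79 and 73 ChIP counts, and 87554 bp from Elk1 (chrX:20862755-20863054), with 8 input counts and 65 and 60 ChIP counts. Neither passed the threshold, with log2 ratios of -0.07 ± 0.40 and 0.65 ± 0.52 (SE, edgeR adjusted p = 0.983 and 0.772).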

How the data were processed

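NR2F2 ChIP-seq was available for 2 ChIP libraries and 1 input from E14.5 testes. The authors deposited raw read counts at 10069 peaks for each library. According to the study's methods and the submitters' processing notes, they trimmed single-end reads with Trim Galore 0.6.7, mapped them to mm10 with Bowtie2, required a mapping quality of at least 5, removed duplicates with Picard 1.110, merged the ChIP replicates and called peaks with HOMER 4.11.1 at an FDR of 1e-05. The peaks were resized and those in blacklisted regions removed. The rule by which reads were assigned to peaks was not given in the sources used. Since peaks were called on the counted reads, ChIP above input is no independent evidence of binding.

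Groups and ChIP numbers came from the sample labels. Distances ran from the nearer edge of a peak to any TSS of the curated RefSeq transcripts (GRCm38, 45756 transcripts). ChIP was tested against input on the deposited counts by the quasi-likelihood functions glmQLFit and glmQLFTest of edgeR 4.0.16 (under R 4.3.3, with limma 3.58.1), using TMM factors and Benjamini-Hochberg adjustment over all peaks. The SE of a log2 ratio was derived as its absolute value divided by the square root of the F statistic of that test. These errors include the counting error and the variation from ChIP 1 to ChIP 2, and the lone input was taken to vary as the ChIP libraries do. The binomial tests and ratio intervals cover counting error only. Percentiles are mid-ranks over all peaks. Windows of 50 and 200 kb, nearest genes alone, protein-coding transcripts, GENCODE vM21 models, other scalings, DESeq2 1.42.0, robust fitting, a minimum of 10 input counts and the exclusion of the X and Y chromosomes were tried as alternatives. The fits were tested on simulated data, in which lowered peaks were recovered far less often than raised ones, so the absence of a call below the typical ratio says little. Raised peaks were also missed in part, so the absence of a call above it does not show that a ratio was typical. Other values came from scripts in Python 3.11.15 (pandas 2.3.3, scipy 1.17.1, numpy 2.4.6).

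The members and the lists were chosen with earlier results of these data known. Every peak of the 10 genes and every gene without a peak is named. From the wider lists, the 3 peaks with the highest summed ChIP count and every peak past the edgeR threshold are named. Genes named for a peak within 1 kb of a TSS, or for having no peak, and the peak near Cep164 were named after their values were seen.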

Additional observations from a re-analysis of the deposited data

How the results depend on the processing

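The number of peaks at the contractile genes followed the window. It was 16 at 100 kb, 9 at 50 kb, 35 at 200 kb and 3 with nearest genes alone, and the number of genes with a peak was 8, 6, 10 and 2 at these settings, so that Myh11 and Myocd lacked a peak at 100 kb but not at 200 kb. With protein-coding transcripts 9 genes had a peak, since Myocd gained 2 peaks and Tpm1 gained 1. GENCODE models, tried after the results were seen, also gave 9, with 1 peak at Myocd. The median ratio of 5.16 became 3.77 with 5 added to each count, 1.04 with TMM-adjusted totals, 4.43 at peaks with at least 10 input counts and 4.76 at nearest genes alone, while all peaks moved to 3.28, 0.953 and 3.87 under the first 3 of these settings. Leaving out a ChIP replicate gave 5.14 to 5.17. The 1 peak with the longer motif was lost within the central 100 bp (0 peaks). No peak of the 10 genes was called above or below the typical ratio in any fit. The minimum of 10 input counts left 7 of the 16 peaks, of which 1 had an unadjusted p under 0.05, as did 274 of all 2427 peaks in that fit. Over all peaks, 159 were called, 109 without TMM, 39 with DESeq2 size factors, 22 with DESeq2 and 62 of 2427 with at least 10 input counts. Dropping TMM shifted the log2 ratio of the median peak to -0.10. A fit without a ChIP library was not run, because it leaves no residual degrees of freedom. No paired analysis was possible because the input carries no replicate number. The low input counts limit every ratio.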
